A study of Homo sapiens with 12 samples.

Results

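The response of HCT116 cells to tumour necrosis factor alpha (TNF) in the absence of a kinase inhibitor was described from 6 of the 12 libraries of the series, 3 treated with TNF and 3 vehicle controls. HCT116 is an established human colorectal carcinoma line. Controls were kept in 0.1% DMSO, the vehicle, for 3 hours. In the treated group a 1 hour period in the same vehicle preceded 2 hours with TNF at 10 ng/mL. The other 6 libraries came from cells given Senexin B, an inhibitor of the Mediator kinases CDK8 and CDK19, at 1 µM, with or without TNF. They served here to estimate the spread and, as TNF plus Senexin B against Senexin B, as a second set of libraries with the same cytokine. The series labels the replicates as biological. All came from 1 cell line, so the p-values measure the spread between these cultures only.

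TNF binds its receptor TNFR1 on the cell surface, where adaptor proteins recruit the IKK kinases. IKK marks the inhibitor IkB-alpha for destruction, and the NF-kB transcription factors then enter the nucleus. The same receptor also activates the JNK, p38 and ERK kinases, which act on AP-1 factors such as JUN. Genes that switch on from factors already present in the cell, with no need for new protein, are called primary response genes. Much of the early NF-kB response consists of chemokines, survival genes and inhibitors that end the signal. The genes described below lie mostly outside that well-known set.

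Short stretches upstream of 7 genes that rose outside the best known set and of 1 gene that fell are printed below. Only stretches that hold a match to the motif searched for NF-kB were eligible for printing. The motif leaves 3 bases free, so a match need not be a site that NF-kB binds. KDM6B, NFE2L2 and SEMA4B also rose outside the best known set and had an eligible stretch, which is not printed. NFKBIA, the gene for IkB-alpha, is shown for reference. The motif searched was GGG, then any 3 bases, then TTCC, on both strands, in windows from 250 bases before to 50 bases after the RefSeq start (GRCh38.p14), and it is written in capitals. In the other orientation it reads GGAA, any 3 bases, CCC. Each line gives the 150 bases that precede a start, 5′ to 3′ on the strand of the gene.
NFKBIA: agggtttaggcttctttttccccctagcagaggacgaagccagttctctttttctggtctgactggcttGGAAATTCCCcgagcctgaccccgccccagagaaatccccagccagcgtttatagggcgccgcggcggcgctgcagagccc
IFNGR2: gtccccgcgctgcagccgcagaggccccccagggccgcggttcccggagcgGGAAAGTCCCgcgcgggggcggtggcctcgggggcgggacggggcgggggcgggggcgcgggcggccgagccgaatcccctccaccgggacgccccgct
IFIH1: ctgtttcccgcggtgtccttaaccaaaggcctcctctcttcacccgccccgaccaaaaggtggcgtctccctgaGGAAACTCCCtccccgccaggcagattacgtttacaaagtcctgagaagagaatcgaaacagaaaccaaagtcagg
DDX58: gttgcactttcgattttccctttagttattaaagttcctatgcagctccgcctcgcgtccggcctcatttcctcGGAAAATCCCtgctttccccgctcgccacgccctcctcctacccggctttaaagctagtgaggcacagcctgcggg
TAP1: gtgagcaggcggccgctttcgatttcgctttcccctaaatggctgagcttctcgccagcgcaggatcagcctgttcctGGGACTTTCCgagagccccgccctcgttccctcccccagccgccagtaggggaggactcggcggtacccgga
B2M: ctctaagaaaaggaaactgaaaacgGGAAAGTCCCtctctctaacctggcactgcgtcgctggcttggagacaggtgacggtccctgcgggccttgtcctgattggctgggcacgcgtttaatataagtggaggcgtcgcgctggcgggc
ELF3: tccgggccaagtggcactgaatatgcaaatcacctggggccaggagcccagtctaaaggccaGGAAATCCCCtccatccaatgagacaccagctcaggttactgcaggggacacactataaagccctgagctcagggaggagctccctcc
ZFP36: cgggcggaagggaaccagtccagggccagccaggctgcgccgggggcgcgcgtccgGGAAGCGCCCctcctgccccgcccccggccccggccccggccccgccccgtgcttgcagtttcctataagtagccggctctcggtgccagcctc
ID2: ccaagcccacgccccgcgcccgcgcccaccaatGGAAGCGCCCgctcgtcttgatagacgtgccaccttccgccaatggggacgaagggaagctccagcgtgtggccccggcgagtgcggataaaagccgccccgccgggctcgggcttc
The stretches lie on GRCh38.p14 at chr14:35404750-35404899 (minus strand) for NFKBIA, chr21:33403263-33403412 (plus) for IFNGR2 and chr2:162318685-162318834 (minus) for IFIH1. DDX58 is at chr9:32526197-32526346 (minus), TAP1 at chr6:32853705-32853854 (minus) and B2M at chr15:44711367-44711516 (plus). ELF3 is at chr1:202010437-202010586 (plus), ZFP36 at chr19:39406697-39406846 (plus) and ID2 at chr2:8681906-8682055 (plus). In all RefSeq windows of this length, 6.52% of 35116 held the motif. Of the genes selected for description that rose outside the best known targets, 51 of 65 had a window and 14 of these held a match. Of those that fell, 23 of 28 had a window and 1, ID2, held a match. A gene was counted if any of its windows held a match, so these counts and the 6.52% of windows have different units. The share was not compared between gene sets, because only 76% of the tested genes had a window. A match describes the letters only.

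Total counts in the 6 libraries ran from 5835226 in TNF replicate 1 to 8994809, and 13084 genes passed the filter on low counts. The biological coefficient of variation between replicates was 3.62%. TNF replicate 1 and control replicate 1 stood apart from their groups. Chi-square per degree of freedom between replicates was 2.51 to 2.80 for pairs that held TNF replicate 1 and 1.25 for the other TNF pair. It was 2.71 to 2.87 for pairs that held control replicate 1 and 1.37 for the other control pair. Of 14 colon epithelial markers, 12 stood above 1 CPM (CPM, the counts scaled to a common library size with TMM factors), while VIL1 and CDX1 were at 0 counts. Their summed level was 4567 to 4903 CPM in control and 4323 to 4785 CPM with TNF. Of 10 fibroblast markers only COL1A1 was above 1 CPM, and none of 10 blood cell and 6 endothelial markers was. In bulk RNA, fewer cells of a type and less RNA per cell cannot be told apart.

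The cytokine had acted in every treated library. NFKBIA, at chr14:35401511-35404749, stood at 25.1, 25.4 and 25.5 CPM in control replicates 1, 2 and 3 and at 289, 298 and 297 CPM with TNF. TNFAIP3, which encodes the deubiquitinase A20, stood at 3.77, 4.15 and 3.20 CPM in control and 71.4, 84.4 and 75.5 CPM with TNF. Neither gene's groups came near to overlapping. Of 13084 genes tested in edgeR's quasi-likelihood fit, 1309 (10.0%) had an adjusted p under 0.05, 760 of them higher with TNF (5.81%) and 549 lower (4.20%). A change of 2-fold or more was seen for 99 of the rises (0.757% of genes) and 21 of the falls (0.161%). For 3184 genes (24.3%) the 2 groups did not overlap. The list of best known NF-kB targets held 50 tested genes of 73, of which 43 rose and 0 fell. At an unadjusted p under 0.05 none of them was lower, and DESeq2 called 40 higher and 0 lower. The median log2 fold change of the 50 was 1.33, against -0.005 over all tested genes.

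Outside that list, 717 genes rose and 549 fell. Their sizes differed from those of the listed targets: 69 of the 717 rose at least 2-fold, and the median log2 fold change of the 717 was 0.29, against 1.61 for the 43 listed genes that rose. In sum the 717 gained 21090 CPM and the 43 gained 3393 CPM, which is less per gene for the 717. The summed level of all tested genes was 24200 CPM higher with TNF under this scaling. The summed level of the 549 genes that fell dropped by 6676 CPM, with a median log2 fold change of -0.31.

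**Figure D1:**
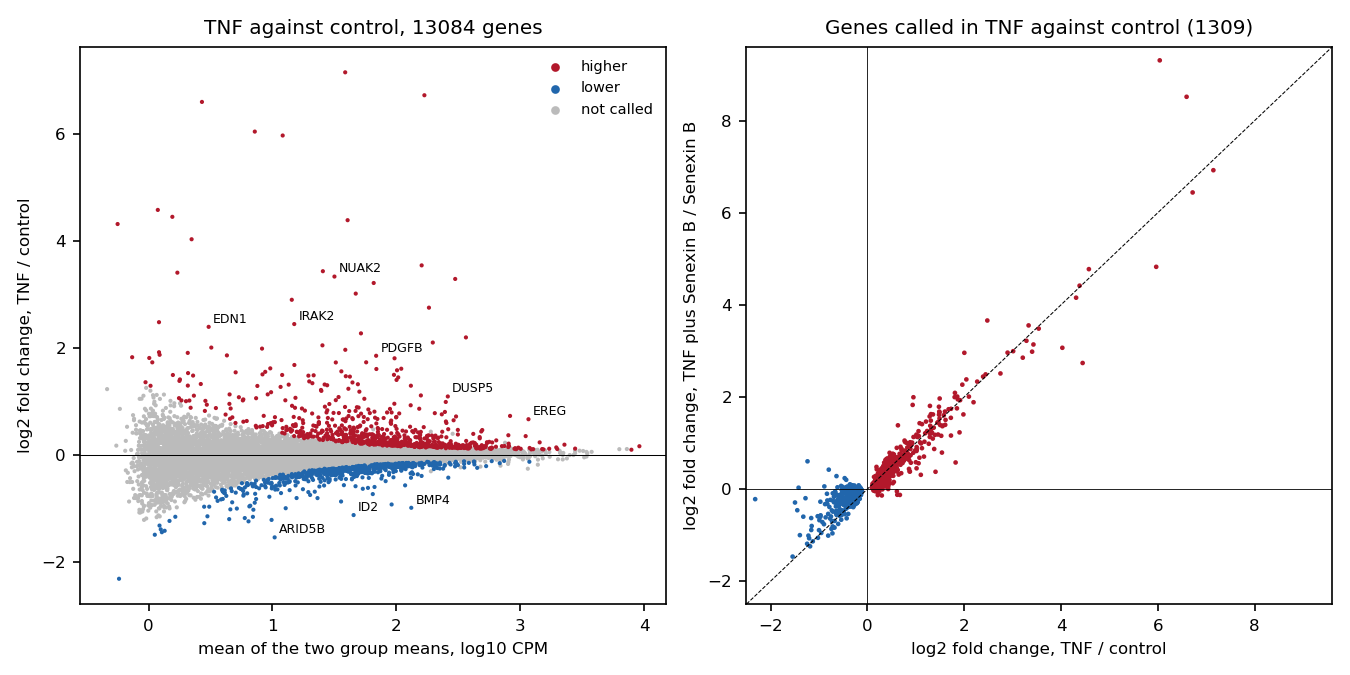
Left, log2 fold change of TNF over control against the mean level (log10 CPM) for each of 13084 tested genes, with 760 called higher in red, 549 called lower in blue and the rest in grey. Right, for the 1309 called genes, the same log2 fold change against that of TNF plus Senexin B over Senexin B, with a dashed line of equality. The rises reach further from 0 than the falls. Some large rises lie near the line, such as NUAK2 (3.33 against 3.55). Others lie off it on either side, such as C8orf46 (4.45 against 2.74) and GPR37L1 (2.48 against 3.66).

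Among the 15 largest increases outside the list, several were genes for signalling proteins. The rule that picked these 15 required groups without overlap, so their separation is a description only. NUAK2 encodes a kinase related to AMPK. It stood at 6.60, 4.87 and 5.86 CPM in control and at 51.7, 64.9 and 55.9 CPM with TNF. Every TNF library was far above every control library, and the rise was 10.1-fold (log2 fold change 3.33 ± 0.14, edgeR adjusted p = 7.76e-30). IRAK2, a kinase-like adaptor of interleukin-1 and Toll-like receptors, stood at 5.66, 4.51 and 3.87 CPM in control and 26.7, 23.2 and 26.0 CPM with TNF. The groups did not overlap, and the log2 fold change was 2.44 ± 0.15 (edgeR adjusted p = 4.83e-22). HIVEP2, a zinc finger protein that binds kB-like sequences, stood at 17.4, 14.4 and 15.9 CPM in control and 59.5, 61.0 and 64.1 CPM with TNF. Its log2 fold change was 1.96 ± 0.09 (edgeR adjusted p = 1.86e-27), again with no overlap. ANKRD33B, an ankyrin repeat gene, went from 45.1, 40.9 and 43.4 to 145, 152 and 154 CPM, and all 3 TNF libraries lay above all 3 controls (log2 fold change 1.80 ± 0.06).

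Secreted signals were also among the largest increases. PDGFB, a chain of platelet-derived growth factor, stood at 28.2, 33.0 and 28.5 CPM in control and 101, 115 and 106 CPM with TNF. The lowest TNF library was above 3 times the highest control, and the log2 fold change was 1.85 ± 0.07 (edgeR adjusted p = 1.08e-30). EDN1, which encodes the vasoconstrictor peptide endothelin-1, stood at 0.809, 1.07 and 0.994 CPM in control and 5.55, 4.78 and 5.13 CPM with TNF. Its level was low in both groups (log2 fold change 2.39 ± 0.31, edgeR adjusted p = 4.48e-10). Not a secreted signal, but also among these increases, was STX11, a syntaxin of vesicle fusion. It went from 1.21, 1.42 and 1.22 to 4.51, 6.99 and 3.91 CPM (log2 fold change 2.00 ± 0.32).

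The remaining large increases rested on few reads. IKZF3, a lymphoid zinc finger factor, had 2 counts over the 3 controls and 50 with TNF, a ratio of 28.2 per library size (95% exact counting interval 7.40 to 239). C8orf46 had 3 and 65 counts, a ratio of 24.4 (7.99 to 121), and the protease inhibitor gene SERPINA3 had 1 and 24 counts, a ratio of 27.03 (4.41 to 1112). These intervals cover counting error only. GPR37L1, RAET1L, LINC00944, PDE10A and GBP3 had means under 1 CPM in control and from 1.15 ± 0.248 CPM (PDE10A) to 3.29 ± 0.514 CPM (RAET1L) with TNF (SD, n = 3). The call of PDE10A was lost without TNF replicate 2, without TNF replicate 3 and without control replicate 3, and that of GBP3 without TNF replicate 1 and control replicate 1 together (edgeR adjusted p = 0.0704).

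**Figure D2:**
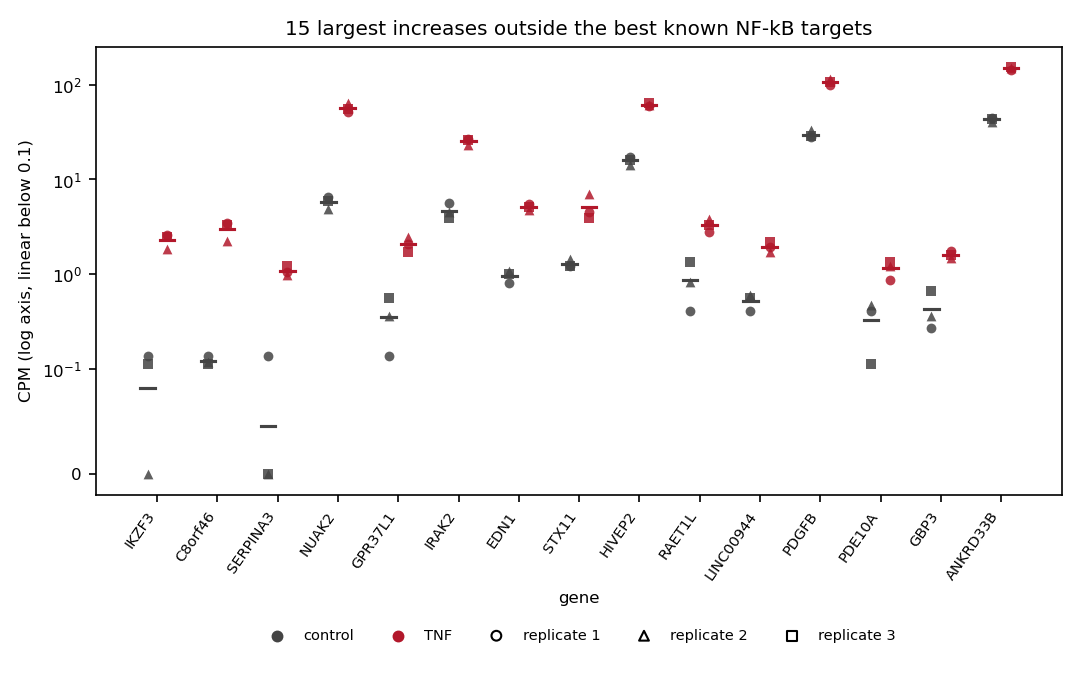
CPM on a log axis, linear below 0.1, for the 15 largest increases outside the best known NF-kB targets. Grey points are control and red points TNF libraries, with a marker shape for each replicate and a line at the group mean. The TNF points lie above the control points for each gene, as the selection required, and controls of IKZF3 and SERPINA3 reach 0.

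Transcription factors of the immediate early class, which are switched on within minutes to hours of many stimuli, rose more often than they fell. Of 36 tested, 16 rose (44.4%), 2 fell (5.56%) and 18 did not pass, with a median log2 fold change of 0.19. Over all tested genes 5.81% rose and 4.20% fell, and the shares given in parentheses for each list below are to be read against these values. All lists were written with earlier results of these data known. Their shares, that of this list included, are descriptions and no independent evidence of a direction. ETS1, founder of the ETS family, stood at 29.8, 26.0 and 24.1 CPM in control and 84.4, 94.7 and 83.2 CPM with TNF. No control reached the TNF range (log2 fold change 1.73 ± 0.08, edgeR adjusted p = 5.41e-27). ELF3, an ETS factor of epithelia, went from 31.3, 34.5 and 36.7 to 97.4, 107 and 106 CPM (log2 fold change 1.60 ± 0.07), and its stretch printed above holds GGAAATCCCC. FOSL2, an AP-1 subunit, went from 57.8, 57.0 and 52.3 to 151, 146 and 157 CPM (log2 fold change 1.44 ± 0.06). KLF6, a Krüppel-like factor, went from 93.0, 106 and 99.7 to 226, 219.8 and 201 CPM (log2 fold change 1.11 ± 0.05). In each of these 3 genes the groups were apart. The AP-1 and ATF genes JUNB, JUN and ATF3 also rose, with log2 fold changes of 1.49, 1.32 and 1.46.

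The members that fell were FOS and KLF2, named after their values were seen. FOS, the classical partner of JUN in AP-1, stood at 5.66, 6.29 and 6.85 CPM in control and 3.81, 3.80 and 3.91 CPM with TNF. The groups did not overlap, and the fall was 0.71 ± 0.20 on the log2 scale (edgeR adjusted p = 0.012). The call of FOS was lost without control replicate 3 and with DESeq2. KLF2 stood at 18.1, 21.7 and 20.6 CPM in control and 8.15, 12.5 and 12.9 CPM with TNF, also without overlap, and fell by 0.81 ± 0.13 (edgeR adjusted p = 1.49e-06). AP-1 genes thus moved in both directions at 2 hours.

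Genes that limit signalling did not move one way. Of 30 tested brakes on MAP kinases and receptor kinases, 7 rose (23.3%) and 5 fell (16.7%). DUSP5, a nuclear phosphatase that acts on ERK, stood at 159, 165 and 174 CPM in control and 349, 357 and 355 CPM with TNF. All TNF libraries were above all controls (log2 fold change 1.09 ± 0.04, edgeR adjusted p = 9.67e-30). DUSP6, a cytoplasmic phosphatase that also acts on ERK, stood at 143, 143 and 136 CPM in control and 95.7, 94.2 and 93.7 CPM with TNF. It fell by 0.57 ± 0.05 on the log2 scale (edgeR adjusted p = 1.13e-13), again with separate groups. DUSP4 fell by 0.40 ± 0.05, from 181, 179 and 185 to 139.9, 135 and 139 CPM. ERRFI1, a feedback inhibitor of the EGF receptor, rose from 611, 617 and 641 to 1046, 1024 and 1020.2 CPM (log2 fold change 0.72 ± 0.03). DUSP8 and DUSP10, phosphatases of JNK and p38, rose by log2 fold changes of 1.31 and 1.01, while SPRY2, SOCS3 and SPRY4 had log2 fold changes of -0.57, -0.45 and -0.25. The call of DUSP10 was lost with DESeq2 and without TNF replicate 1 or 3 or control replicate 2 or 3, and that of SPRY2 with DESeq2, with only the 6 libraries compared and without TNF replicate 1 or control replicate 1 or 2.

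Among genes for proteins that destabilise messenger RNA or hold back translation, 9 of 20 tested rose (45%), 10 were not called and 1, TOB1, fell (5%, log2 fold change -0.44). The list median was 0.14. ZFP36 encodes tristetraprolin, which promotes decay of cytokine messages. It stood at 21.8, 21.4 and 23.1 CPM in control and 39.7, 48.8 and 50.1 CPM with TNF. TNF replicate 1 was the lowest treated library, still well above the controls (log2 fold change 1.08 ± 0.09, edgeR adjusted p = 3.67e-15). ZC3H12C, a relative of the RNase regnase-1, went from 30.1, 26.6 and 24.6 to 48.6, 51.0 and 50.2 CPM, and NOCT, the deadenylase-like nocturnin, from 34.1, 35.5 and 35.0 to 63.6, 68.7 and 60.3 CPM. Their log2 fold changes were 0.89 ± 0.08 and 0.88 ± 0.07. ZFP36L1, a paralog of ZFP36, rose from 199.6, 206 and 188 to 313, 298 and 301 CPM. Without TNF replicate 1 and control replicate 1 together, 6 members were called higher.

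Of 33 tested interferon and antigen presentation genes, 19 rose (57.6%) and 0 fell, while 14 missed the threshold. The median log2 fold change of the 33 was 0.27. At an unadjusted p under 0.05, 21 were higher and 0 lower, and DESeq2 called 14 higher and 0 lower. IFIH1 encodes MDA5, a cytoplasmic sensor of viral RNA. It stood at 5.66, 6.29 and 6.74 CPM in control and 18.9, 16.9 and 17.3 CPM with TNF, with no overlap (log2 fold change 1.49 ± 0.14, edgeR adjusted p = 3.44e-13). DDX58, the gene for the sensor RIG-I, went from 12.4, 11.3 and 12.0 to 30.3, 32.1 and 27.7 CPM, and its groups were likewise separate (log2 fold change 1.34 ± 0.11). TAP1 encodes a subunit of the peptide transporter for class I antigen presentation. It went from 33.8, 33.3 and 34.7 to 56.7, 63.2 and 59.2 CPM, and B2M, the light chain of class I molecules, from 269, 258 and 262 to 374, 350.2 and 365 CPM. Their log2 fold changes were 0.82 ± 0.07 and 0.46 ± 0.04. Each of these 4 genes has a motif match in the stretch printed above, but only stretches with a match were printed.

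Of 30 tested receptors for cytokines and TNF family ligands, 9 rose (30%) and 1, TNFRSF1A, fell (3.33%). TNFRSF1A encodes TNFR1 itself, and its call (log2 fold change -0.18 ± 0.06) was lost without TNF replicate 1 or 3 or control replicate 2 or 3. IFNGR2, a chain of the interferon-gamma receptor, stood at 51.1, 59.3 and 51.6 CPM in control and 171, 163 and 161 CPM with TNF. The lowest TNF library was above 2 times the highest control (log2 fold change 1.61 ± 0.06, edgeR adjusted p = 2.35e-31). The other chain, IFNGR1, went from 34.9, 34.3 and 34.1 to 54.8, 57.2 and 51.8 CPM (log2 fold change 0.66 ± 0.07). IL6ST, the shared signalling chain gp130, went from 68.5, 61.7 and 59.1 to 126, 108 and 109 CPM (log2 fold change 0.86 ± 0.06). The groups were separate for both genes. TNFRSF10B, a receptor for the death ligand TRAIL, rose by 0.80 ± 0.04 on the log2 scale.

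Growth factors of the EGF family rose by small amounts from high levels. Of 9 tested members, 4 rose (44.4%) and 1, ERBB2, fell (11.1%). EREG, which encodes the ligand epiregulin, stood at 896, 952 and 855 CPM in control and 1498, 1447 and 1333 CPM with TNF. The groups did not overlap (log2 fold change 0.66 ± 0.04, edgeR adjusted p = 1.93e-20). The ligands AREG and TGFA rose by log2 fold changes of 0.43 ± 0.04 and 0.38 ± 0.06. The receptor EGFR went from 133, 108 and 101 to 156, 154 and 153 CPM. Control replicate 1 was the highest control, and the call of EGFR was lost without TNF replicate 1. The call of ERBB2 (log2 fold change -0.18) was lost without TNF replicate 1 or 2 or control replicate 1 or 3.

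Cell contact and guidance genes rose in part. Of 40 tested ephrin, semaphorin and adhesion genes, 9 rose (22.5%) and 4 fell (10%). EFNA1, a membrane-anchored ligand of Eph receptors, went from 11.7, 11.2 and 11.3 to 29.0, 35.3 and 30.5 CPM (log2 fold change 1.48 ± 0.11). LAMB3, a laminin-332 chain of the basement membrane, went from 46.6, 61.2 and 57.8 to 129, 150.5 and 156 CPM, a 2.63-fold rise (edgeR adjusted p = 7.40e-17). ITGB8, an integrin chain that takes part in TGF-beta activation, rose from 14.3, 15.1 and 15.7 to 36.6, 33.7 and 33.5 CPM (log2 fold change 1.19 ± 0.10). All 3 genes had separate groups. The 4 that fell, ITGB4, SEMA4D, EPHB4 and ITGA3, had log2 fold changes between -0.27 and -0.19, and with GC-corrected library offsets 1 member was called lower. The call of SEMA4D was also lost without TNF replicate 1 or 2 or control replicate 1 or 3, and that of EPHB4 without control replicate 3.

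Of 30 tested apoptosis regulators outside the known NF-kB survival genes, 6 rose (20%), 1 fell (3.33%) and 23 did not pass. BBC3, which encodes the pro-apoptotic protein PUMA, stood at 9.97, 9.61 and 10.1 CPM in control and 22.2, 20.0 and 20.2 CPM with TNF, with no overlap (log2 fold change 1.06 ± 0.12, edgeR adjusted p = 7.05e-11). BIK and PMAIP1 (NOXA), also pro-apoptotic members of the BCL2 family, rose by 0.64 ± 0.11 and 0.60 ± 0.07. The member that fell was BIRC5, the gene for survivin, with a log2 fold change of -0.13, a call lost without TNF replicate 2 or 3 or control replicate 2 or 3.

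The largest decreases included transcription factors and receptors, and ARID5B had the largest of the 15 fitted falls. The rule that picked these 15, AXIN2 and PTCH1 below among them, required groups without overlap. Their separation is therefore a description only. ARID5B, a DNA-binding partner of a histone demethylase, stood at 15.1, 14.0 and 17.6 CPM in control and 4.68, 5.89 and 5.25 CPM with TNF. Every TNF library was below every control, and the fall was 1.55 ± 0.16 on the log2 scale (edgeR adjusted p = 6.11e-12). ID2, an inhibitor of basic helix-loop-helix factors, stood at 61.4, 61.0 and 63.4 CPM in control and 29.0, 30.5 and 25.7 CPM with TNF. It was the most abundant of the 15, its groups were far apart, and it fell by 1.13 ± 0.08 (edgeR adjusted p = 1.75e-18). RAB3A, a GTPase of vesicle release, went from 9.03, 8.78 and 9.28 to 3.64, 3.19 and 4.52 CPM, and DBP, a clock-controlled factor, from 9.16, 8.78 and 10.3 to 4.68, 4.66 and 4.52 CPM. They fell by 1.25 ± 0.18 and 1.03 ± 0.18.

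DDIT4L, a relative of the mTOR inhibitor REDD1, and the zinc finger gene ZNF488 fell by 1.21 ± 0.23 and 1.19 ± 0.19. The receptors LPAR5 (for lysophosphatidic acid) and SSTR5 (for somatostatin) fell by 1.02 ± 0.22 and 1.15 ± 0.27. The other falls of this size were less firm. GPER1, CYSRT1, GP1BA and ISL1 stood at or below 2.24 ± 0.271 CPM in control (ISL1, SD, n = 3), and each lost its call without at least 1 of the libraries. GPER1 lost its call without TNF replicate 1, 2 or 3 or control replicate 1, and CYSRT1 without any library other than TNF replicate 1. GP1BA lost it without TNF replicate 2 or control replicate 1 or 3, and ISL1 without TNF replicate 2 or 3 or control replicate 3. HOXA10-AS, whose reads cannot be told apart from those of HOXA10 without strand information, lost it without control replicate 3.

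**Figure D3:**
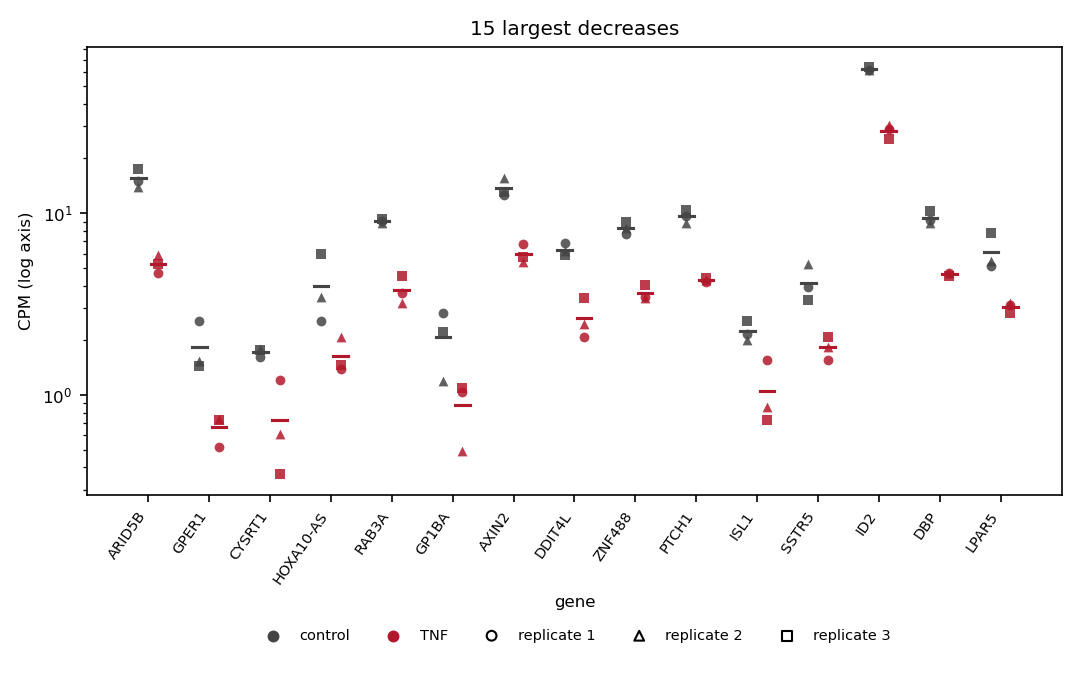
CPM on a log axis for the 15 largest decreases, with control libraries in grey and TNF libraries in red, a marker shape for each replicate and a line at the group mean. ID2 is the most abundant of them, and the TNF points lie below the control points for each gene, as the selection required.

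Of 32 tested lineage and developmental transcription factors, among them the ID, HES and SOX families, 15 fell (46.9%), 0 rose and 17 did not pass, with a median log2 fold change of -0.32. The list was written with earlier results of these data known and holds 3 of the 15 largest falls, ARID5B, ID2 and ZNF488, so its share is a description and no independent evidence of the direction. At an unadjusted p under 0.05, 20 were lower and 0 higher, and DESeq2 called 15 lower and 0 higher. Without TNF replicate 1, and also without both libraries that stood apart, 15 were called lower. ID1 stood at 122, 122 and 117 CPM in control and 61.0, 64.5 and 63.0 CPM with TNF, with wide separation, and fell by 0.93 ± 0.06 on the log2 scale (edgeR adjusted p = 1.29e-20). GATA2, a zinc finger factor of blood and endothelial development, went from 18.2, 15.8 and 17.2 to 8.50, 7.73 and 9.28 CPM, and ZNF503 from 31.8, 29.8 and 27.1 to 15.3, 18.3 and 16.4 CPM. HES1, a repressor downstream of Notch, went from 12.8, 15.4 and 15.4 to 9.36, 10.4 and 6.96 CPM. In each of the 3 genes no TNF library reached the control range.

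Wnt feedback and target genes fell more often than they rose. Of 17 tested, 6 fell (35.3%) and 1 rose (5.88%), with a median of -0.26. AXIN2, a negative regulator and direct target of beta-catenin, stood at 12.5, 15.5 and 13.0 CPM in control and 6.76, 5.40 and 5.74 CPM with TNF. It fell by 1.22 ± 0.15 (edgeR adjusted p = 2.11e-09), with no overlap. RNF43, a ligase that removes Wnt receptors, fell by 0.62 ± 0.07, and LGR4, a receptor for R-spondins, by 0.83. The member that rose was DKK1, a secreted Wnt antagonist, from 369, 379.5 and 369.9 to 442, 436 and 428 CPM (log2 fold change 0.22 ± 0.04). The call of ZNRF3, a member that fell, was lost with DESeq2, without the low-count filter and with only the libraries compared. It was also lost without TNF replicate 1 or 2 or control replicate 1 or 3, and with GC-corrected library offsets. Those offsets gave 5 members lower and 2 higher, DKK1 and WNT10A.

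In the Hedgehog list 2 of 9 tested genes fell (22.2%) and 0 rose. At an unadjusted p under 0.05, 3 were lower and 0 higher, and DESeq2 called 1 lower. PTCH1, the Hedgehog receptor and a target of the pathway, stood at 9.70, 8.78 and 10.4 CPM in control and 4.16, 4.29 and 4.40 CPM with TNF. The groups did not overlap, and it fell by 1.16 ± 0.17. GLI2, a Hedgehog transcription factor, fell by 0.54 ± 0.17 and lost its call without TNF replicate 1, TNF replicate 2 or control replicate 3. That call was also lost with GC-corrected library offsets (edgeR adjusted p = 0.0862), with DESeq2 and with only the libraries compared.

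Among BMP and TGF-beta genes 4 of 25 rose (16%) and 4 fell (16%). BMP4, a secreted ligand, stood at 179, 173 and 174 CPM in control and 89.6, 84.5 and 90.5 CPM with TNF, and the fall of 0.99 ± 0.05 left no overlap (edgeR adjusted p = 2.65e-24). SMAD3, which carries the TGF-beta signal to the nucleus, stood at 169, 167 and 168 CPM in control and 338, 329 and 331 CPM with TNF (log2 fold change 0.99 ± 0.04, edgeR adjusted p = 4.94e-28). The BMP ligand and the TGF-beta mediator thus moved in opposite directions. Without both libraries that stood apart, 2 members were called lower. In the Notch list, 2 of 14 rose (14.3%) and 3 fell (21.4%). NOTCH2, a receptor and one of those that rose, lost its call without TNF replicate 1 and with GC-corrected library offsets. LFNG, a glycosyltransferase that modifies Notch, went from 9.57, 8.54 and 8.51 to 2.60, 3.92 and 6.60 CPM. Its TNF libraries spread widely, and the fall was 0.95 ± 0.20. The ligand JAG1 rose from 73.3, 68.5 and 70.3 to 96.9, 97.6 and 97.8 CPM, while JAG2 fell by 0.28 ± 0.06, a call lost with GC-corrected library offsets.

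Of 24 YAP, TEAD and SRF targets 4 rose (16.7%) and 2 fell (8.33%). CYR61, a matricellular protein, rose from 38.0, 36.7 and 37.3 to 60.3, 58.4 and 65.5 CPM. Without TNF replicate 1 the list had 6 higher and 0 lower. Of 32 chromatin modifiers 5 rose (15.6%) and 3 fell (9.38%), and without both libraries that stood apart 3 rose and 0 fell. KDM6B, a histone H3K27 demethylase, rose by 0.55 ± 0.10 on the log2 scale. Of 24 antioxidant and metal genes 4 rose (16.7%) and 1 fell (4.17%). NFE2L2, which encodes the antioxidant factor NRF2, rose by 0.36 ± 0.05, and TXNRD1, a thioredoxin reductase, by 0.36 ± 0.03.

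None of 19 G1 cyclin and CDK inhibitor genes and none of 19 long noncoding RNAs was called by edgeR in the fit to all 12 libraries. At an unadjusted p under 0.05 the cyclin list had 4 higher and 4 lower and the noncoding list 3 higher and 1 lower, and DESeq2 called 0 in both. Other edgeR fits called up to 3 cyclin list members, among them CCND1 and CDKN1A higher with GC-corrected library offsets and CDKN2C lower without control replicate 2, and up to 2 noncoding RNAs, GAS5 and NEAT1 without control replicate 1. Of 27 housekeeping genes 3 rose (11.1%), B2M among them, and of 43 ribosomal protein genes 1 rose (2.33%) and 2 fell (4.65%). The medians of these last 2 lists were 0.03 and 0.01. The ribosomal calls, RPL7, RPL13 and RPS15, had log2 fold changes of 0.10, -0.13 and -0.17, and those of RPL7 and RPL13 were lost without TNF replicate 1 or control replicate 1. That of RPL7 was also lost without TNF replicate 3 or control replicate 2, that of RPL13 without control replicate 3, and all 3 with GC-corrected library offsets.

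**Figure D4:**
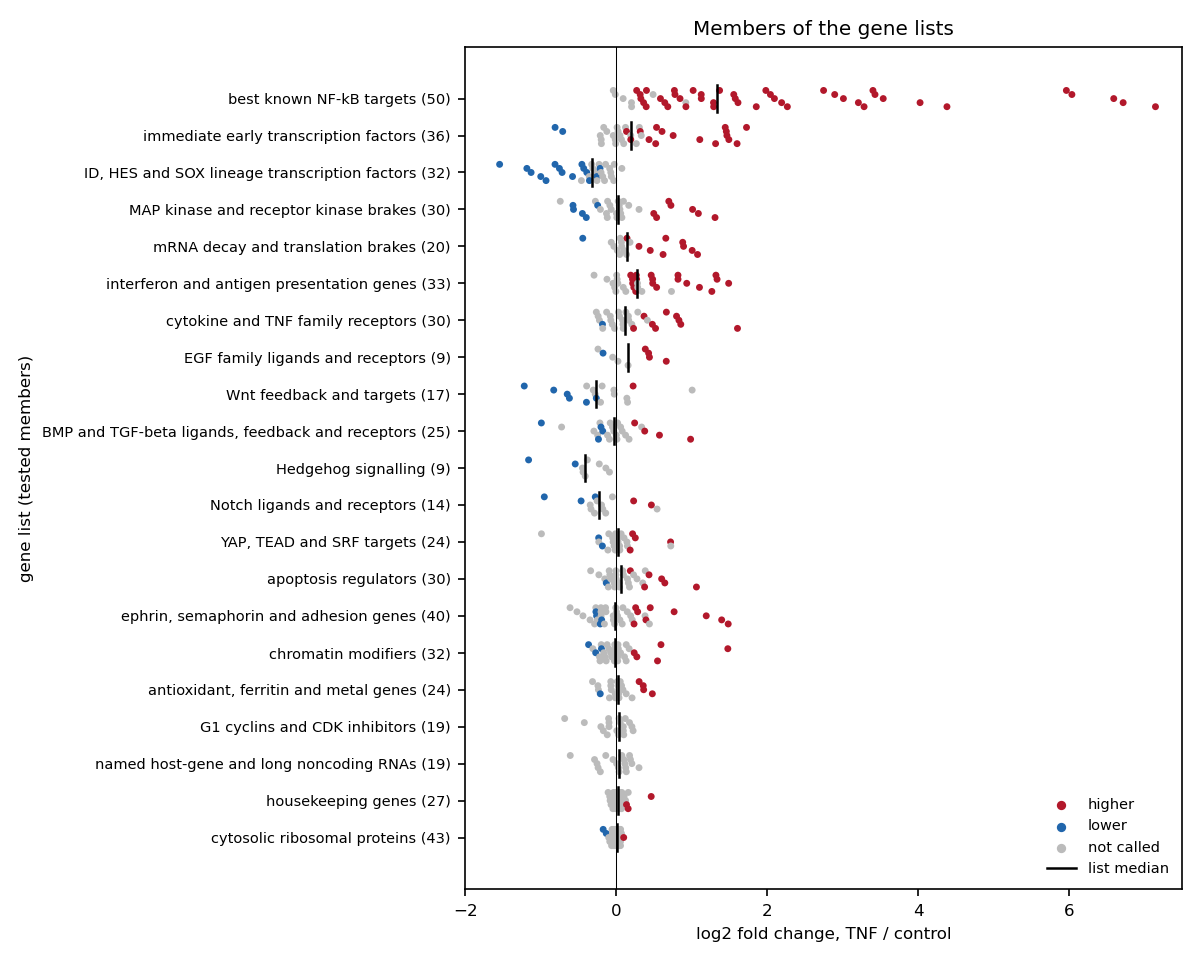
Log2 fold change of TNF over control for each tested member of 21 gene lists, with red for called higher, blue for called lower, grey for not called and a black bar at the list median. Counts of tested members stand in parentheses. The best known NF-kB targets reach furthest to the right, and the called members of the ID, HES and SOX list all lie to the left of 0.

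The cytokine effect was also measured in cells under Senexin B, in 6 libraries that share none with the comparison above. There 779 genes (5.95%) were called, 559 higher (4.27%) and 220 lower (1.68%). Of the 69 genes that rose at least 2-fold outside the list, 69 moved the same way and 61 were called higher. Of the 21 that fell at least 2-fold, 19 moved the same way and 12 were called lower. Of all 717 genes that rose outside the list, 689 moved the same way and 367 were called, and of the 549 that fell, 494 and 126. Of all 13084 tested genes, 8498 (64.95%) moved the same way. No gene was called in opposite directions. The difference between the 2 TNF effects was called for 6 genes (0.0459%). For single genes, ARID5B fell by 1.55 ± 0.16 without the inhibitor and had a log2 fold change of -1.47 ± 0.17 with it, and NUAK2 rose by 3.33 ± 0.14 and 3.55 ± 0.14.

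TNF replicate 1 carried a trend with transcript GC content. Its deviation from the other 2 TNF libraries had a Spearman rho of -0.52 with GC content over 12473 genes, where genes are not independent replicates. The deviations of TNF replicates 2 and 3 had rho of 0.36 and 0.32, which share that library as a reference. Control replicates 1, 2 and 3 had -0.16, -0.06 and 0.24, and the 6 libraries with Senexin B lay between -0.11 and 0.06. Measured against TNF replicate 3 alone or TNF replicate 2 alone, TNF replicate 1 still had -0.48 and -0.49. Transcripts rich in G and C were therefore low in that library and transcripts poor in them high.

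The fold changes carried the same trend, and not only through that library. The Spearman correlation between GC content and the log2 fold change of TNF over control was -0.41 with all libraries, -0.24 without TNF replicate 1 and -0.28 without TNF replicate 1 and control replicate 1. It was -0.18 for the cytokine effect under Senexin B. With GC-corrected library offsets it was -0.01, a value that the correction itself sets. Those offsets remove any GC trend shared by the TNF libraries, whatever its source. Genes that rose had a median GC content of 43.3%, genes that fell 59.5%, and all tested genes 48.4%. Of 1248 genes with the lowest GC content, 127 rose and 6 fell, and of 1248 with the highest, 26 rose and 191 fell. How much of this follows from library preparation and how much from the cells was not tested.

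Small changes lost their call more often than large ones without TNF replicate 1. Without it, 553 of the 760 higher genes (72.8%) and 312 of the 549 lower genes (56.8%) kept their call and direction. Without TNF replicate 2, 654 and 428 did, and without TNF replicate 3, 620 and 409. Large changes held more often without TNF replicate 1: 66 of the 69 genes that rose at least 2-fold outside the list and 18 of the 21 that fell at least 2-fold kept their call, as did all 43 listed targets. Of the 470 genes that fell by less than 1.5-fold, 251 kept it. With GC-corrected library offsets 68 of the 69 and 19 of the 21 did, and 201 of the 470.

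**Figure D5:**
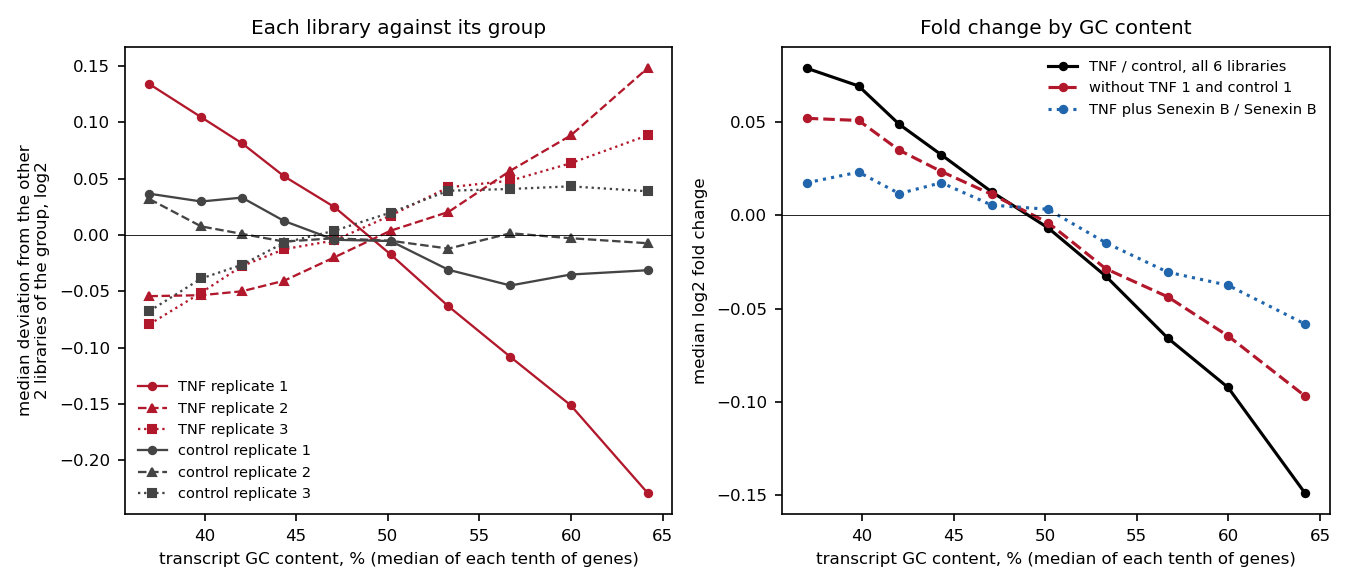
Left, median deviation (log2) of each library from the other 2 of its group in 10 groups of genes ordered by transcript GC content (%), controls in grey and TNF in red. Right, median log2 fold change in the same 10 groups for TNF over control with all 6 libraries, without TNF replicate 1 and control replicate 1, and for TNF plus Senexin B over Senexin B. TNF replicate 1 falls steadily from left to right, and the 3 fold change lines slope the same way, least under Senexin B.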

How the data were processed

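RNA from HCT116 cells was prepared with a TruSeq RNA kit, as the labels' protocols say. The authors deposited raw counts, unnormalised and whole, for 56634 gene symbols in 12 libraries. Reads went through STAR 2.4, SAMtools 1.2 and the Subread 1.4.6 program featureCounts on GRCh38 (hg38), per the submitters' processing notes. The annotation release, the strand setting and the handling of multimapping reads are not given in the sources used here. Without strand, antisense partners such as HOXA10-AS and its neighbours cannot be separated.

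Counts were tested with edgeR 4.0.16 (R 4.3.3): normalization by TMM, the filterByExpr minimum, robust quasi-likelihood fits with 1 coefficient per group on all 12 libraries, and Benjamini-Hochberg adjustment over 13084 genes. Genes with an adjusted p under 0.05 were called. Errors of log2 fold changes are Wald standard errors scaled by the posterior quasi-dispersion. In the 6 libraries compared the total was 5835226 to 8994809, so 1 CPM is about 6 to 9 counts. Genes were matched by symbol to GENCODE 29 (GRCh38) for 36769 symbols, and GC content was known for 12473 tested genes (95.3%). GC-corrected offsets were lowess fits (span 0.3) on GC content of each library's deviation from the gene's mean over all libraries in the fit. They therefore also remove a GC trend that belongs to a whole group, so calls lost with them need not reflect a fault of single libraries. Promoter sequences are from RefSeq (GRCh38.p14).

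Named genes outside the list of best known targets were the 15 largest increases and 15 largest decreases among called genes whose groups did not overlap and whose higher mean reached 1 CPM, with clone names, small RNAs and pseudogenes passed over. Up to 4 called members per list with the smallest adjusted p were added. Of the genes so selected, 1 is not reported here. Genes and lists were chosen with earlier results of these data known. The fit was tested on simulated counts of 13084 genes for TNF against control and found 76.1% of the genes given a 1.5-fold change, 88.1% of those given 2-fold and 100% of those given 4-fold. Of its 190 calls, 14 were false. The simulated counts had 1 common spread for all genes, no GC trend and no library that stood apart. These shares may therefore not hold for the real comparison. Alternatives were DESeq2 1.42.0, other size factors, no filter, only the libraries compared, GC-corrected offsets, a replicate block and each library left out.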

Additional observations from a re-analysis of the deposited data

Results flagged for a closer look

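For 2 of the genes named here the TNF effect differed between cells with and without Senexin B by the interaction term of the edgeR fit (n = 3 per group). BMP4 fell by 0.99 ± 0.05 on the log2 scale without the inhibitor and had a log2 fold change of -0.68 ± 0.05 with it, a difference (with minus without) of 0.32 (edgeR adjusted p = 0.0446). SDC4, a heparan sulfate proteoglycan among the best known targets, rose by 2.19 ± 0.04 without the inhibitor and 1.88 ± 0.04 with it, a difference of -0.31 (edgeR adjusted p = 0.0117).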

How the results depend on the processing

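Of 98 named genes, 79 kept their call and direction in every alternative that tested them, and none of 1357 alternative values reversed. The count of 1309 called genes was 850 with DESeq2 and 881 with only the 6 libraries compared. Leaving out 1 library at a time, it ran from 876 to 1348. The 760 higher genes were 530 with DESeq2 and 533 with only the 6 libraries compared. They ran from 552 to 731 when 1 library was left out. The 549 lower genes were 320 with DESeq2, 348 with only the 6 libraries compared, 341 with GC-corrected offsets, and 335 without TNF replicate 1 and control replicate 1. They ran from 324 (without control replicate 3) to 617 (without TNF replicate 2) when 1 library was left out, and were 340 without TNF replicate 1. The cause of these moves was not tested, and the fits that left libraries out also had fewer samples. The share of calls that were higher was 58.1%, and 67.1% with GC-corrected offsets. The GC trend of TNF replicate 1 was -0.67 over genes of at least 10 CPM. Under Senexin B the count of 779 ran from 583 to 605 with 1 library left out. At 6 to 9 counts per CPM, changes of genes near 1 CPM were poorly measured.

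The replicate block gave 1470 called genes, 843 higher and 627 lower. The deviations of same-numbered TNF and control libraries correlated between -0.0129 and 0.0425. With Senexin B, same-numbered libraries with and without TNF correlated at 0.0455, 0.0213 and 0.0684. Differently numbered ones there lay between -0.0497 and 0.00213. The labels give a number only, and whether it marks a shared batch was not tested. Control replicate 2 correlated better with TNF replicate 1 (0.0451) than with its own number.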
